A study of Anas platyrhynchos with 3 samples.

Results

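The bill of the Pekin duck (Anas platyrhynchos) is a touch organ, and transcripts of 10 neuropeptide genes were followed in its skin. The genes were TAC1, ADCYAP1, UCN2, PENK, VIP, NPY, POMC, GAL, CCK and SST, chosen by name with earlier measurements of the same libraries known, so their levels are a description and were not tested. Of the 10 symbols, 9 had a row among the 14938 genes of the deposited table, and SST was not analysed here. All libraries came from 1 group, embryos of embryonic day 24 to 26 with no stated treatment. Eggs were kept at 37 °C, and embryos were taken 24 to 48 hours ahead of hatching, once through the inner membrane of the shell. The 3 replicates, which the labels call biological, had 32247700, 30630039 and 25268141 counted reads. No second condition was measured, and the labels do not give the day, sex or pooling of each embryo.

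Neuropeptides are cut from larger precursor proteins by proteases of the secretory pathway, packed into dense core granules and released to act on G protein-coupled receptors. In skin they are known from sensory nerve endings, whose cell bodies lie in ganglia outside the tissue, and in mammals also from Merkel cells, touch-sensitive epidermal cells with granules. Some peptide genes are also transcribed by keratinocytes, fibroblasts or immune cells of mammals. In whole skin, fewer cells of a type and less RNA per cell cannot be told apart. A transcript in skin RNA also does not show which cell held it, or how much peptide was made.

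Keratinocyte and fibroblast marker genes were abundant, and those of neurons were mostly low. Markers of keratinocytes summed to 3813 to 4470 FPKM (a level scaled to gene length and library size) in the 3 libraries, and those of fibroblasts to 3380 to 5971. Schwann cell markers summed to 429 to 813 FPKM, those of endothelium to 73.1 to 91.9, adipocytes to 49.4 to 57.9 (mostly ADIPOQ), skeletal muscle to 21.6 to 71.8, leukocytes to 14.7 to 26.6 and melanocytes to 6.30 to 7.19, nearly all of it MITF, with the pigment genes near 0. Of 6 Merkel cell markers measured, 5 reached 1 FPKM in every library (SOX2, PIEZO2, POU4F3, ISL1 and GFI1), against 71.0% of all genes in the table. The sum of the 6 was 35.0, 32.5 and 25.9 FPKM in replicates 1, 2 and 3. The sum of 9 sensory neuron markers, TAC1 and ADCYAP1 left out, was 40.6, 40.5 and 26.2 FPKM, most of it from UCHL1, with NEFL and NTRK2 also above 1 FPKM in every library, and SNAP25 and STMN2 stayed at 0.692 ± 0.392 and 0.496 ± 0.0563 FPKM (means ± SD, n = 3). Among autonomic neuron markers, TH was at 0 reads in every library, and DBH had at most 1 read. GATA3, which keratinocytes also express, was the one marker of that list above 1 FPKM in every library, at 5.78 ± 1.44.

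The peptide genes spanned a wide range of levels. TAC1 and UCN2 were the highest, ADCYAP1 and NPY followed at a few FPKM, PENK and VIP lay near 1 FPKM, and GAL and CCK were known from a handful of reads. POMC had no read in any library. Of the 9 genes, 4 reached 1 FPKM in all 3 libraries, against 71.0% of all genes in the table, a share that the choice of the genes fixes and from which nothing is read.

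**Figure D1:**
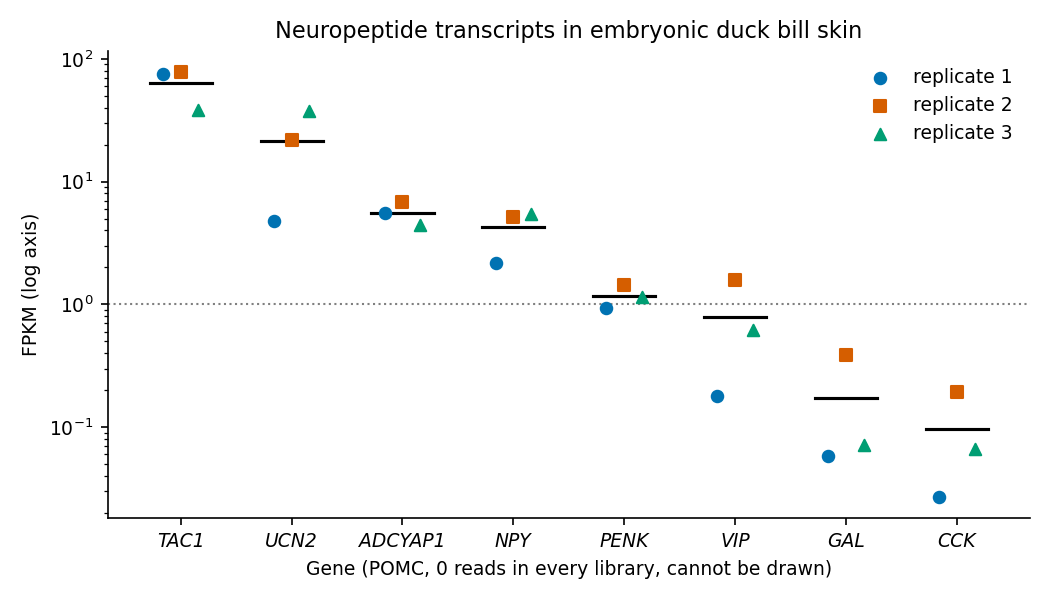
FPKM of each neuropeptide gene on a log axis, with 1 point per library (replicates 1 to 3) and a bar at the mean; the dotted line marks 1 FPKM. TAC1 lay above the other genes in every library, and UCN2 ranged from 4.82 to 37.7 FPKM.

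TAC1 encodes preprotachykinin, the precursor of substance P and neurokinin A, peptides of pain-sensing and itch-sensing fibres in mammals. It stood at 75.2, 78.1 and 38.5 FPKM in replicates 1, 2 and 3, from 1477, 1503 and 614 reads. Replicates 1 and 2 were close together, and replicate 3 was lower by more than counting error, since its exact Poisson 95% interval of 35.5 to 41.6 FPKM lay below theirs. The mean of 63.9 ± 22.1 FPKM placed TAC1 at rank 1198 of all genes, the 92nd percentile. Its SD of log2(FPKM + 0.1) between libraries, 0.57, was at the 97th percentile of genes with at least 1 FPKM in every library.

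UCN2, annotated as urocortin 2, a peptide of the corticotropin-releasing hormone family that in mammals acts on the receptor CRHR2, had the largest SD of log2(FPKM + 0.1) between libraries among the 9 genes, although VIP had a larger ratio of highest to lowest library. It stood at 4.82, 21.8 and 37.7 FPKM in replicates 1, 2 and 3, from 83, 368 and 528 reads. The highest library was 7.83-fold above the lowest, and no counting intervals of the 3 libraries overlapped. The mean was 21.5 ± 16.5 FPKM, and without replicate 3 it was 13.3, a change of over 1.5 times. The SD of its log2 values, 1.52, lay at the 99.95th percentile of the genes with at least 1 FPKM in every library. UCN2 was the 1 symbol of the 10 not matched by name in the RefSeq gene table, so its identity here rests on the deposited table.

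TAC1 exceeded UCN2 in 3 of 3 libraries, but by very different margins. The ratio of their FPKM was 15.6 in replicate 1, 3.58 in replicate 2 and 1.02 in replicate 3. In replicate 3 the counting intervals, 35.5 to 41.6 FPKM for TAC1 and 34.6 to 41.1 for UCN2, overlapped almost entirely. As a share of the summed FPKM of the 9 genes, TAC1 made up 84.5%, 67.7% and 43.7%, and UCN2 5.42%, 18.9% and 42.9%. The sum itself was 89.0, 115 and 88.0 FPKM, so replicates 1 and 3 held near-equal amounts of different makeup. Without replicate 3 the mean share of TAC1 was 76.1% and that of UCN2 12.2%.

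**Figure D2:**
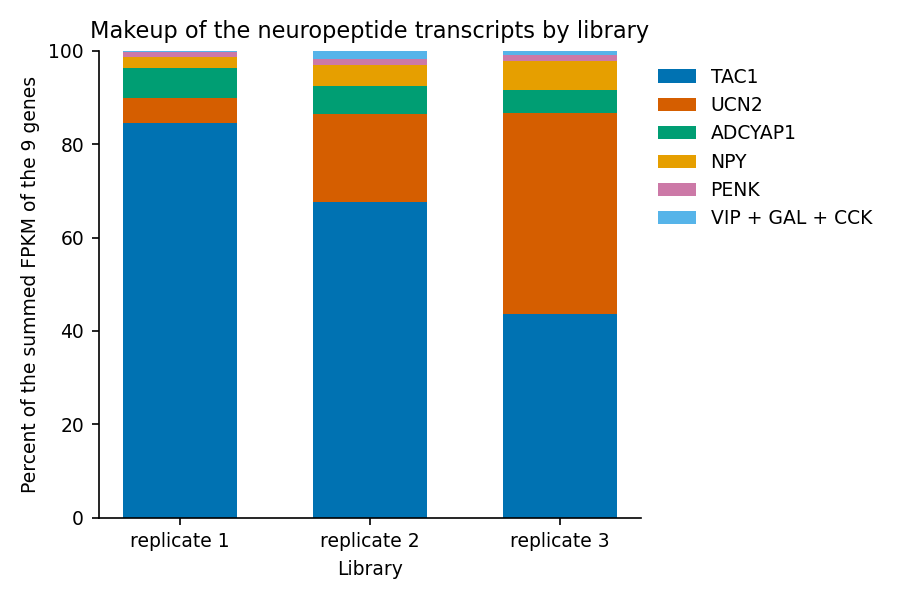
Stacked bars of each gene's percent of the summed FPKM of the 9 neuropeptide genes in each library; POMC adds 0. TAC1 holds 84.5% in replicate 1 and 43.7% in replicate 3, where UCN2 holds 42.9%.

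ADCYAP1 and NPY formed the next level. ADCYAP1 encodes PACAP, a peptide of sensory and autonomic neurons that relaxes vessels and raises cyclic AMP in its target cells, and was at 5.58, 6.76 and 4.43 FPKM. These values came from only 48, 57 and 31 reads, because the gene length implied by counts and FPKM was 273 bases, the shortest of the 8 genes with reads. Whether this is a complete gene model was not tested, and the FPKM of ADCYAP1 and its place beside NPY depend on it. The counting intervals of the 3 libraries shared common values, which does not show that the libraries were equal. NPY encodes neuropeptide Y, a vasoconstrictor of sympathetic nerves, and was at 2.17, 5.16 and 5.43 FPKM from 34, 79 and 69 reads. Its replicate 1 was lower than the other libraries by more than counting error. ADCYAP1 at 5.59 ± 1.16 and NPY at 4.25 ± 1.81 FPKM overlapped in range, and their order held in 2 of 3 libraries. UCN2 also overlapped ADCYAP1, being lower than it in replicate 1.

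PENK, VIP, GAL and CCK were the low peptide genes. PENK encodes proenkephalin, the source of the opioid enkephalins and a peptide gene of mammalian Merkel cells, and was at 0.936, 1.45 and 1.15 FPKM from 37, 56 and 37 reads. The counting intervals of the 3 libraries shared common values, and PENK missed 1 FPKM in replicate 1 alone. VIP encodes vasoactive intestinal peptide, a vessel-dilating peptide of autonomic nerves that is also found in Merkel cells of some mammals, and was at 0.179, 1.57 and 0.616 FPKM. It rested on 5, 43 and 14 reads, with replicate 2 above the others beyond counting error and 8.78-fold over replicate 1. Without replicate 2 the mean of VIP fell from 0.788 to 0.397 FPKM.

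GAL encodes galanin, a peptide induced in injured sensory neurons of mammals, and had 2, 13 and 2 reads, or 0.0585, 0.388 and 0.0720 FPKM. CCK encodes cholecystokinin, a gut and brain peptide, and had 1, 7 and 2 reads, or 0.0272, 0.194 and 0.0669 FPKM. Both were highest in replicate 2, although the counting intervals of their libraries shared common values. Without replicate 2 their means were 0.0653 and 0.0471 FPKM, against 0.173 and 0.0962 with all libraries. POMC encodes the precursor of the melanocortins and of beta-endorphin. Its 0 reads in each library are a limit on detection, since 3 reads, the floor used here for a count of 0, would have been 0.0930, 0.0979 and 0.119 CPM, and the exact Poisson 95% interval reaches slightly higher, to 3.69 reads.

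Among neighbours in the order of means, ranges did not overlap between TAC1 and UCN2, between NPY and PENK, or between CCK and POMC. For CCK, with 1, 7 and 2 reads, the counting interval of its reads overlapped that of POMC in every library. NPY was 2.32 to 4.71 times PENK within libraries. This gap depends on the gene lengths implied by counts and FPKM, 496 bases for NPY and 1253 for PENK. By reads NPY had 34, 79 and 69 and PENK 37, 56 and 37, with PENK the higher in replicate 1. PENK and VIP, VIP and GAL, and GAL and CCK overlapped in range, although VIP exceeded GAL, and GAL exceeded CCK, in 3 of 3 libraries. On the rule of 1 FPKM in every library, NPY lay inside with a lowest library of 2.17 FPKM, and PENK just outside with 0.936.

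The genes did not vary between libraries as a block. Of the 8 genes with reads, 6 were highest in replicate 2 (TAC1, ADCYAP1, PENK, VIP, GAL and CCK), against 36.1% of all genes with reads. UCN2 and NPY were highest in replicate 3. For ADCYAP1, PENK, GAL and CCK the counting intervals of all 3 libraries shared a value. Those of TAC1 in replicates 1 and 2 overlapped, as did those of NPY in replicates 2 and 3. Of these maxima, only those of VIP and UCN2 had intervals apart from both other libraries. Replicate 1 was lowest for 6 genes, against 34.2% of all genes with reads, and replicate 3 for TAC1 and ADCYAP1, against 31.1%. Of these minima, only those of UCN2 and NPY in replicate 1 and of TAC1 in replicate 3 had intervals apart from both other libraries. UCN2 and NPY shared low values in replicate 1, at -1.70 and -0.83 on the log2 scale from their own means, where TAC1 stood at 0.30. Given as values, these patterns span only 3 libraries.

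Marker genes moved along several of these lines. Fibroblast markers were highest in replicate 2 for 6 of 6 genes measured and Schwann cell markers for 5 of 5, against 36.1% of all genes with reads. Replicate 2 was also the library in which TAC1, ADCYAP1, PENK, VIP, GAL and CCK were highest. Of these, only VIP had a counting interval there apart from both other libraries. Some marker maxima were narrow, with SOX10 at 13.79 FPKM in replicate 2 and 13.75 in replicate 3. In replicates 2 and 1, S100B was at 13.44 and 13.18 FPKM and PDGFRA at 12.54 and 12.36. The granule genes CHGA and CHGB, abundant in Merkel cells, were at 29.3, 52.4 and 16.5 FPKM and at 142, 188 and 99.6 FPKM, lowest in replicate 3 as TAC1 was. Of the 14 granule genes measured, 7 were lowest in replicate 3, 6 in replicate 1 and 1 in replicate 2. The neuronal protease gene UCHL1 was at 34.4, 31.0 and 19.1 FPKM, and summed skeletal muscle markers were at 71.8, 46.3 and 21.6. Of the 9 sensory neuron markers, 5 were lowest in replicate 3, 2 in replicate 1 and 2 in replicate 2. Among all genes with reads, 31.1% were lowest in replicate 3. Merkel cell markers were lowest in replicate 3 for 5 of 6 genes, against the same 31.1%. They were highest there for none of the 6, against 32.0% of all genes with reads. The part of these differences in the values of TAC1, ADCYAP1, PENK, VIP, GAL and CCK was not tested. Leukocyte markers, at 14.7, 26.6 and 17.4 FPKM summed, were lowest in replicate 1 as UCN2 was, but highest in replicate 2. None of the 11 marker lists had its lowest sum in replicate 1 and its highest in replicate 3, the order of UCN2. NPY had the same order of values, but its counting intervals in replicates 2 and 3, 4.08 to 6.43 and 4.22 to 6.87 FPKM, overlapped. Such sums rest mostly on the highest genes of a list. In the leukocyte list, LAPTM5 ran in the order of UCN2, at 3.00, 4.45 and 4.95 FPKM, and the other 4 markers were highest in replicate 2. The part of cell makeup in the values of UCN2 and NPY was not tested.

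**Figure D3:**
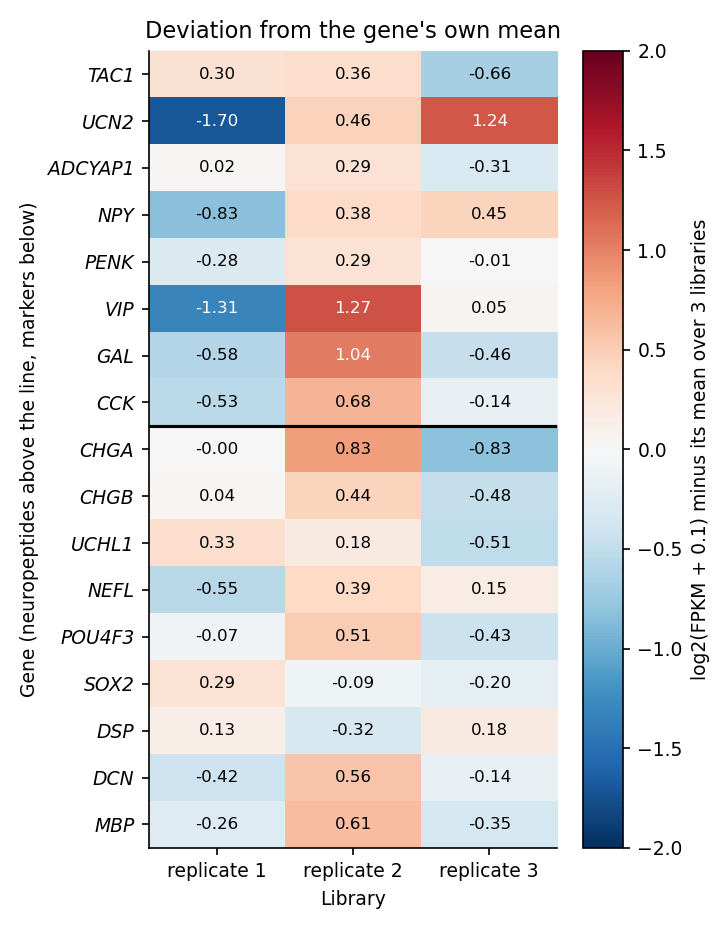
Difference of log2(FPKM + 0.1) from the gene's own mean in each library (columns), for 8 neuropeptide genes above the line and 9 marker or granule genes below it; red is higher and blue lower. UCN2, NPY and VIP are lowest in replicate 1, as are the markers NEFL and DCN. TAC1, CHGA, CHGB and UCHL1 are lowest in replicate 3, and DSP in replicate 2.

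For each gene over the minimum, the abundant genes with the most similar values across libraries were listed. Likeness was measured as the root mean square difference between the library deviations of 2 genes, over 3 libraries, among 5708 or 5709 named genes whose mean reached 10 FPKM. No gene came within 0.1 on the log2 scale of UCN2, a limit that takes in the size of variation as well as its order and so is hard to meet for a gene that varied this much. The nearest was RBP7 at 0.59, with 9.05, 15.1 and 36.8 FPKM, followed by GZMM at 0.66 and GTSF1 at 0.73. For NPY, 1 gene lay within 0.1, GTSF1 at 0.09, followed by SCARB1 at 0.12 and TWF1 at 0.18. For TAC1, 8 genes did, led by CYGB at 0.055, THY1 at 0.057 and the muscle actin gene ACTA1 at 0.063. ADCYAP1 had 176 such genes, led by SDR16C5, EPHX2 and LHFP at 0.009, 0.010 and 0.011. Its SD of log2(FPKM + 0.1) between libraries, 0.30, was at the 80th percentile of genes with at least 1 FPKM in every library. With 3 libraries, many genes share an order, and these values describe the libraries only. Counting error of ADCYAP1 and NPY, with replicate 1 intervals of 4.11 to 7.39 and 1.51 to 3.04 FPKM, is wider than the differences listed. Which genes lie nearest to these 2 is therefore not settled.

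Other peptide precursors showed that TAC1 was not alone at its level. Of 56 further precursors listed, 29 were measured and 7 reached 1 FPKM in all libraries, against 71.0% of all genes in the table. These 7 were set against the median gene of each library (13.3, 13.1 and 13.3 FPKM, over the 10605 genes with at least 1 FPKM in every library) with limma's moderated test on log2(FPKM + 0.1), adjusted over all genes tested. By this test 43.7% of all tested genes lay above the median gene and 43.6% below it, and of the 7 precursors 3 lay above and 4 below. NTS, which encodes neurotensin, a peptide of gut and brain, was at 78.5, 37.6 and 54.5 FPKM and overlapped TAC1 in range. It lay 4.09-fold above the median gene (log2 2.03 ± 0.20, limma's moderated SE, adjusted p = 0.00011 by its test). NUCB2, which encodes the nesfatin precursor and a widely expressed calcium-binding protein, was at 41.1 ± 5.74 FPKM (log2 1.62, adjusted p = 2.4e-05). EDN3, an endothelin of melanocyte and enteric neuron development, was at 29.0 ± 5.0 FPKM (log2 1.11, adjusted p = 0.00021).

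The 4 lower precursors included PTHLH, the parathyroid hormone-like peptide of skin and growth plate, at 10.2 ± 2.05 FPKM. It lay below the median gene (log2 -0.39, adjusted p = 0.028), but not without replicate 2 (-0.23, adjusted p = 0.13) or replicate 3 (-0.36, adjusted p = 0.099). EDN2, the vessel-relaxing peptide gene ADM and the vasoconstrictor EDN1 were at 2.96 ± 0.505, 2.03 ± 0.497 and 1.70 ± 0.242 FPKM. Another 22 precursors were under the minimum, 4 of them with no read. CALCB, a calcitonin gene-related peptide gene, had 7, 23 and 2 reads, and CRH, which encodes corticotropin-releasing hormone, had 5, 11 and 13. These 2 were named after their values were seen. CALCA, also on the list, was not measured under that symbol. Of the 38 precursors measured, the 9 neuropeptide genes held 34.6%, 45.0% and 38.7% of the summed FPKM, and TAC1 alone 29.2%, 30.4% and 16.9%. By reads, which also count gene length, the 9 genes held 12.4%, 15.8% and 13.6% and TAC1 10.9%, 11.2% and 6.45%, while NUCB2 alone held 50.9 ± 3.77%.

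Receptor transcripts were mostly low, and some ligands lay above their receptors while others lay below. Of 33 receptor and partner genes measured, 5 reached the minimum, against 71.0% of all genes in the table. The other 28 did not, and 6 had no read. Of the 5, 4 lay below the median gene, against 43.6% of all genes tested, and 1 was not apart from it. The median over all 33 was 0.0828 FPKM. TACR1, the substance P receptor, was at 2.72, 1.42 and 1.90 FPKM (2.01 ± 0.659). Its log2 against the median gene was -2.71 ± 0.17 (limma's moderated SE, adjusted p = 1.6e-05 by its test). TAC1 was 27.6, 55.1 and 20.3 times as high as TACR1 in the same libraries. TACR2, the neurokinin A receptor, was at 0.501 ± 0.216 FPKM and TACR3 at 0 reads.

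VIPR2, a receptor shared by PACAP and VIP, was the highest measured receptor of the members. It was at 4.83, 4.40 and 5.18 FPKM (log2 -1.45 against the median gene by limma's test, adjusted p = 1.7e-05). Its level overlapped that of ADCYAP1 and exceeded that of VIP in 3 of 3 libraries. The PACAP-selective receptor ADCYAP1R1 was lower, at 0.494 ± 0.189 FPKM, and VIPR1, also listed, was not measured. CRHR2, the receptor of urocortin 2, was at 0.724, 0.989 and 0.864 FPKM from 65, 87 and 63 reads, while CRHR1 had 0, 2 and 0 reads and the binding protein gene CRHBP 3, 4 and 3. CRHR2 thus lay within a narrow range over libraries in which UCN2 ranged from 4.82 to 37.7 FPKM, and the ratio of UCN2 to CRHR2 was 6.66, 22.1 and 43.7.

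Among opioid receptors, the delta receptor OPRD1, to which enkephalins bind, was at 1.45, 1.23 and 1.37 FPKM (log2 -3.21, adjusted p = 1.2e-06). Its level was close to that of PENK, with PENK higher in 1 of 3 libraries. The mu receptor OPRM1 had 2, 7 and 16 reads, and OPRK1 and OPRL1 had none. Of 7 NPY receptors listed, 3 were measured. NPY2R was the highest of them at 0.377 ± 0.0991 FPKM, and NPY exceeded it 4.45, 15.2 and 18.1 times. NPY5R was at 0.255 ± 0.197 FPKM and NPY1R at 0.0260 ± 0.0175.

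CCK and the melanocortins showed the reverse, with receptors or partners above the ligand. CCKBR was at 0.687, 0.863 and 0.585 FPKM and exceeded CCK in 3 of 3 libraries. With POMC at 0 reads, the melanocortin receptor MC5R, which in mammals acts in sebaceous and other exocrine glands, was at 1.24, 2.12 and 0.829 FPKM. MRAP, a receptor accessory protein gene, was at 8.76 ± 1.27 FPKM (log2 -0.60, adjusted p = 0.0028), and ASIP, the agouti antagonist of melanocortin receptors, at 13.4 ± 3.94, not apart from the median gene (log2 -0.03, adjusted p = 0.87). The receptors MC1R, MC2R and MC3R had no reads. The highest galanin receptor measured, GALR3, was at 0.0508 ± 0.0333 FPKM. SSTR1, a somatostatin receptor, was at 1.56, 0.748 and 0.924 FPKM.

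**Figure D4:**
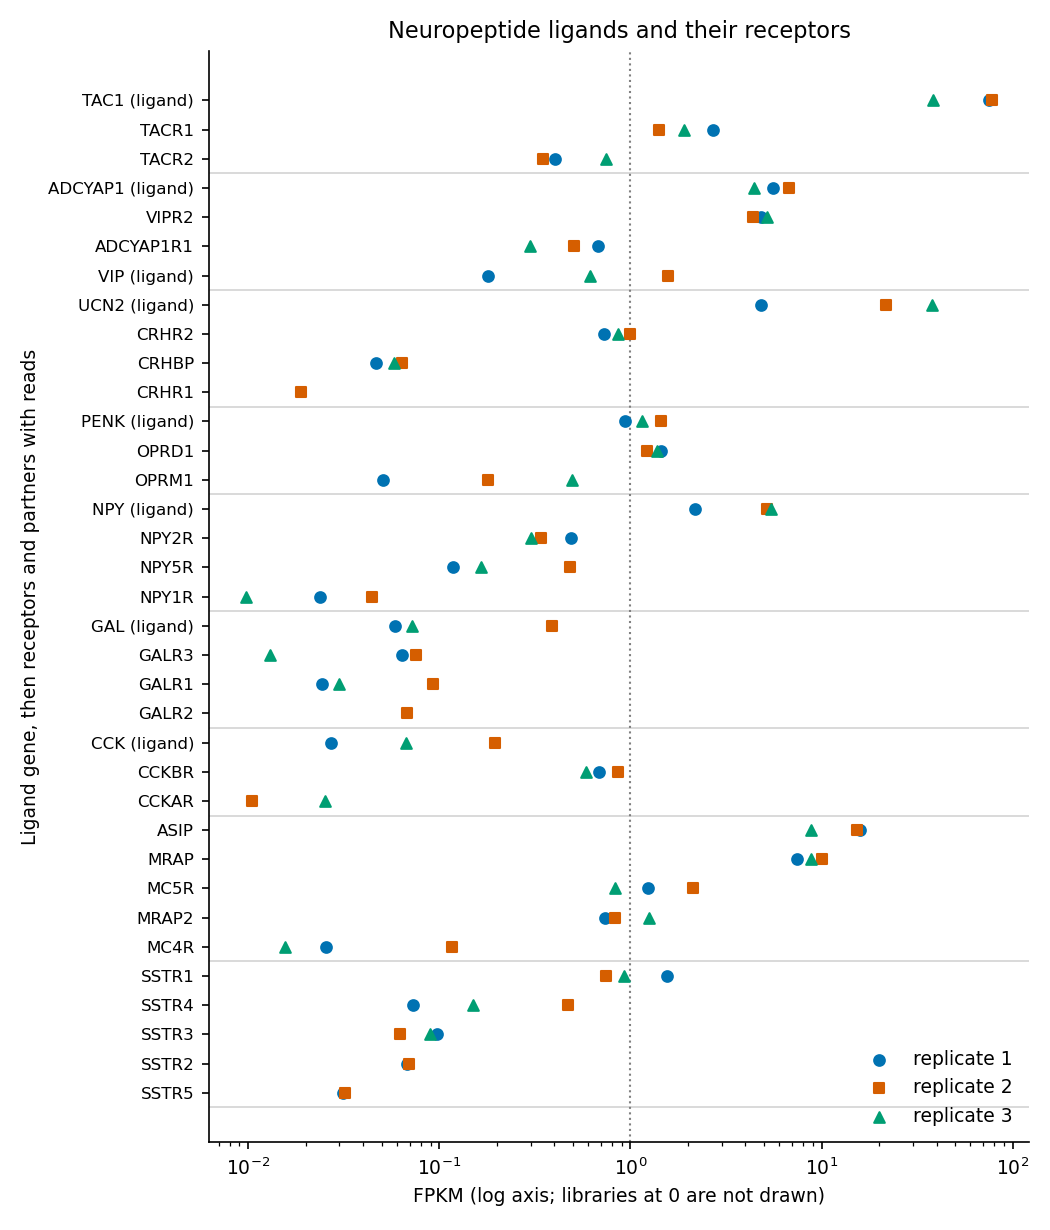
FPKM of each ligand and of its measured receptors and partners with reads, 1 point per library on a log axis; libraries at 0 are not drawn and the dotted line marks 1 FPKM. TAC1, UCN2 and NPY exceed their receptors in every library, whereas CCK lies below CCKBR, and VIP below VIPR2.

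Enzymes listed as cutting or trimming peptides or their precursors were counted in the same way. Of 13 measured, 11 reached the minimum, against 71.0% of all genes in the table. Of these 11, 8 lay above the median gene, 2 below it and 1 not apart, against 43.7% and 43.6% of all genes tested. At a minimum of 5 FPKM 4 of the 11 lay above it. The 4 highest were the carboxypeptidase genes CPM at 90.7 ± 9.14 and CPZ at 46.6 ± 7.53 FPKM, the amidating enzyme PAM at 35.9 ± 7.48 and the convertase PCSK7 at 25.6 ± 2.04. Most of these enzymes also act outside neuroendocrine cells, and whether CPM or CPZ acts on peptide precursors here was not tested. Among enzymes named after their values were seen, the prohormone convertase PCSK1 was at 17.5, 27.2 and 16.9 FPKM (log2 0.59, adjusted p = 0.012), and the granule carboxypeptidase CPE at 16.7, 30.2 and 22.4 (log2 0.76, adjusted p = 0.006). PCSK2, the other neuroendocrine convertase, was at 9.43, 7.37 and 8.19 FPKM (log2 -0.67, adjusted p = 0.001). SCG5, whose product assists PCSK2, had 19, 50 and 22 reads. PCSK1 was highest in replicate 2, as were CHGA and most of the low peptide genes, and its call rests on the minimum, with log2 -0.006 against the median of genes with at least 5 FPKM (adjusted p = 0.97). CPE also did not pass at that minimum (0.16, adjusted p = 0.38).

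Granule genes were unequal in level. Of 14 measured, 8 reached the minimum, against 71.0% of all genes in the table. Of the 8, 4 lay above and 4 below the median gene, close to the 43.7% and 43.6% of all genes tested. CHGB, a granule matrix protein, was at 143 ± 44.3 FPKM (log2 3.38, adjusted p = 8.2e-06), and its relative CHGA at 32.8 ± 18.2 (log2 1.15, adjusted p = 0.011), which did not pass at a minimum of 5 FPKM (0.54, adjusted p = 0.11). The vesicle traffic genes RAB27A at 40.0 ± 6.89 and RAB27B at 16.4 ± 2.03 FPKM were the others above it, the latter not without replicate 1 (log2 0.35, adjusted p = 0.072) or replicate 3 (0.23, adjusted p = 0.15).

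Peptidases that break down peptides lay on both sides of the median gene. Of 13 measured, 11 reached the minimum, against 71.0% of all genes in the table. Of these 11, 5 lay above the median gene, 3 below and 3 not apart, against 43.7% above and 43.6% below among all genes tested. The 4 highest were THOP1 at 95.1 ± 11.5, PREP at 37.0 ± 4.34, TPP2 at 32.0 ± 5.26 and IDE at 24.3 ± 2.95 FPKM, enzymes found in many tissues. MME, neprilysin, which cleaves substance P and enkephalins and was named after its values were seen, was at 20.8, 27.3 and 14.9 FPKM (log2 0.62, adjusted p = 0.015), and did not pass at a minimum of 5 FPKM (0.02, adjusted p = 0.93) or without replicate 1 (0.63, adjusted p = 0.062).

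Factors of the cyclic AMP response element, a promoter element known from several neuropeptide genes, and the neuronal gene repressor REST made up a list of 10 genes. Of these, 8 were measured and all 8 reached the minimum, against 71.0% of all genes in the table. Among the 8, 1 lay above the median gene, 5 below and 2 were not apart from it, against 43.7% and 43.6% of all genes tested. ATF1 was at 81.7 ± 4.29 FPKM (log2 2.62, adjusted p = 1.8e-06). ATF2 at 13.2 ± 2.47 and REST at 12.9 ± 0.698 were not apart (adjusted p = 0.88 and 0.68). CREBBP at 10.4 ± 1.27 lay below (log2 -0.36, adjusted p = 0.016), but not without replicate 2 (-0.28, adjusted p = 0.071) or replicate 3 (-0.31, adjusted p = 0.094). Genes near the median depend on the minimum. With none, PTHLH, MRAP and CREBBP lay above the median gene by limma's test (log2 0.56, 0.34 and 0.58, adjusted p = 0.019, 0.048 and 0.0053). PCSK2 then had a log2 of 0.27 but did not pass (adjusted p = 0.053). At 5 FPKM RAB27B lay below the median gene (-0.30, adjusted p = 0.023).

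**Figure D5:**
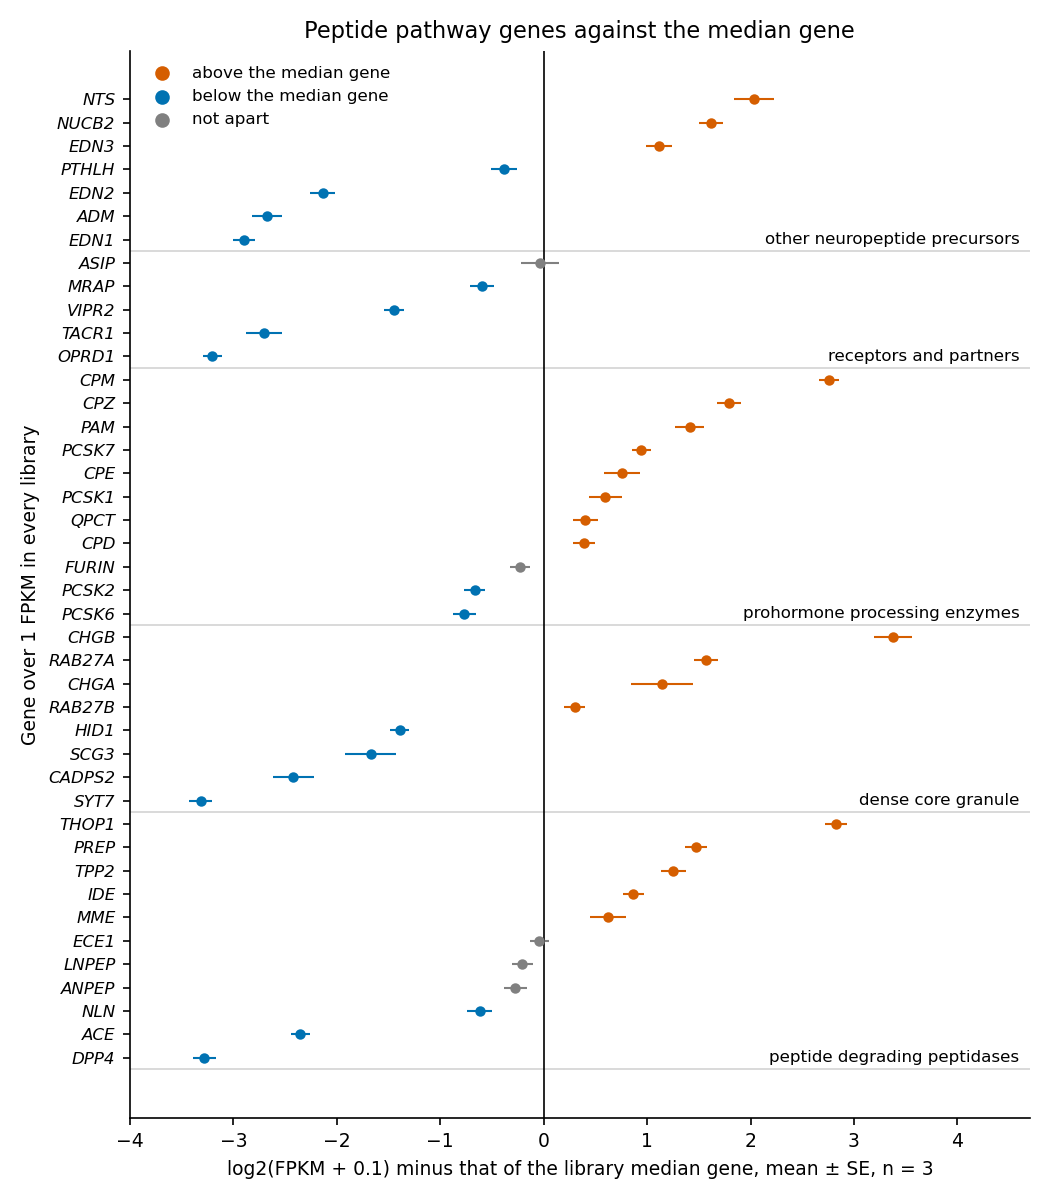
Difference of log2(FPKM + 0.1) between each gene and the median gene of its library, as the mean over 3 libraries ± limma's moderated SE. Genes of 5 lists with at least 1 FPKM in every library are drawn. Orange is above, blue below and grey not apart by limma's test at an adjusted p of 0.05. Of 5 receptor and partner genes 4 lie below the median gene, against 43.6% of all genes tested. Of 11 processing enzymes 8 lie above it, against 43.7%.

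The genome positions of the peptide genes were not used to choose them. In the RefSeq gene table of the IASCAAS_PekinDuck_T2T assembly, 9 of the 10 symbols were found, and 5 of them, TAC1, ADCYAP1, PENK, NPY and CCK, lay on the same chromosome. That chromosome holds 7.98% of the 17676 protein-coding genes of the table. The chromosome was picked because it held the most members, and the members are few, so this is a description only.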

How the data were processed

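Poly(A) RNA of bill skin was made into strand-specific libraries (KAPA mRNA Hyper Prep), per the labels' protocols. The authors' table holds raw counts and FPKM for each gene, per the file headers. Tools listed in the submitters' processing notes, with no role given, are edgeR 3.22.3, featureCounts (Subread 1.6.2), STAR 2.5.4b, Trimmomatic 0.36 and CASAVA 1.8.2. The genome build is not given in the sources used here. With edgeR's TMM factors, the length of a gene worked out from its count and FPKM was whole within 0.01 bases for 100% of 14343 genes with reads, so the deposited FPKM carry that scaling. Genes without a symbol took one from the RefSeq gene table by gene number (730 of 3347).

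The members and lists were chosen with earlier results of these data known. Members were described and not tested. Other genes were tested against the library median gene with limma 3.58.1 (R 4.3.3) on log2(FPKM + 0.1), for the 10605 genes that reached 1 FPKM in every library, two-sided, with Benjamini-Hochberg adjustment over all of them at 0.05. On this scale, folds of low genes are understated. With 1 group, no count test between groups was possible. SDs rest on the spread between 3 samples, and counting intervals cover counting error only. The SEs and p-values of limma are moderated, so they rest on that spread and on the variance of all genes tested. For genes of large spread such an SE is smaller than the 3 samples alone give, and for genes of small spread larger. Intervals that share a value do not show that libraries were equal, since no test between libraries was run. Library pairs differed by far more than sampling noise. Named are all members, receptors and other precursors over the minimum, the highest receptor of each ligand, the 4 highest genes of other lists and the 3 genes nearest to a member. Marker lists are given as sums. Other receptors, SCG5 and single markers under the minimum were added with their values in view. The search of precursor proteins and promoters for cleavage sites and motifs was not run, and no sequence is used here. Python 3.11.15 with matplotlib 3.10.9 drew the figures.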

Additional observations from a re-analysis of the deposited data

How the results depend on the processing

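The minimum decides what the median gene is, and so which genes lie on either side of it. The number of genes tested changes with it too, and the share of all genes called at the other settings is not given here. Receptors and partners called below the median gene were 31 of 33 tested, 12 of 14 and 2 of 2 without a minimum, at 0.1 and at 5 FPKM. At 1 FPKM they were 4 of 5, and 2 of 33 were called above it without a minimum. Other precursors called below were 25 of 29, 11 of 15 and 1 of 4 at the same settings, against 4 of 7 at 1 FPKM. Granule genes called below were 9 of 14, 7 of 11 and 1 of 4, against 4 of 8. Processing enzymes above were 4 of 11 at 5 FPKM, and granule genes above 2 of 4. Peptidases above were 8 of 13 without a minimum. In the list of cyclic AMP response element factors, 8 genes were tested at each setting. Those above were 5 and 3 without a minimum and at 0.1 FPKM, and those below 0 and 1. Without single replicates 3 to 4 were below. The direction turned without a minimum for PTHLH (log2 0.56), MRAP (0.34), ASIP (0.91), PCSK2 (0.27), ATF2 (0.92), CREBBP (0.58) and REST (0.90). At 0.1 FPKM it turned for PTHLH (0.01), ASIP (0.36), ATF2 (0.38), CREBBP (0.038) and REST (0.36). At 5 FPKM it turned for PCSK1 (-0.006) and RAB27B (-0.30). Calls of CPE, CHGA and MME were lost at 5 FPKM, and those of MRAP (-0.20, adjusted p = 0.16) and PCSK2 (-0.27, adjusted p = 0.058) at 0.1 FPKM. Members over the minimum were 1 at 5 FPKM, against 4, 6 at 0.1 and 5 by the mean. For 32 named genes, 254 of 282 alternative values kept the main call. A change of sign was counted as kept where neither value passed the test. This was so for ASIP at 0.1 FPKM, and for ASIP, ATF2 and REST without single replicates. Every value with a pseudocount of 1, DESeq2 size factors or limma's trend kept direction and side of the threshold. The means of UCN2, VIP, GAL and CCK move by over 1.5 times without single replicates, as given above. The share of TAC1 was 55.7 to 76.1% without single replicates, and 68.5% by reads without length. No paired analysis was possible because there is 1 group. GAL and CCK, with 17 and 10 reads in all, are limited by depth.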
